A study of Mus musculus with 24 samples.

Results

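This account concerns 8 genes of 2 imprinted domains of the mouse genome, followed through embryonic stem (ES) cells of 6 genotypes by RNA sequencing of total RNA. The genes were chosen by name. Snrpn, Ndn, Magel2, Mkrn3, Peg12 and Ube3a lie in the Snrpn domain on chromosome 7, and Igf2r and Slc22a3 lie in the Igf2r domain on chromosome 17. They are 8 of 37310 gene entries, and each symbol had 1 entry in both deposited tables. The first table held cells lacking Smchd1 and Dux (Double KO), cells lacking Smchd1 alone (Smchd1 KO), cells lacking Dux alone (Dux KO) and wild-type cells (WT). The second table held a triple knockout of the Tet genes that also lacked Smchd1 (quad KO) and the Tet triple knockout itself (Tet TKO), so that both of these genotypes lack the Tet genes. It also had 3 columns named for WT that matched no sample by name, and these were not used. Every genotype had 3 biological replicates, all grown without feeder cells in serum and LIF, and each WT and Smchd1 KO replicate was sequenced in 2 technical runs. The strain, the sex and the number of clones behind each genotype are not given in the sources used here. The tables were normalized separately, and every test stayed within 1 table.

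Imprinted genes are expressed mainly or only from 1 parental allele. In the Snrpn domain the paternal allele expresses Snrpn, Ndn, Magel2, Mkrn3 and Peg12, under an imprinting centre at the Snrpn promoter that is methylated on the maternal allele. Ube3a is expressed from both alleles in most tissues and from the maternal allele in neurons, where a long antisense transcript that continues from Snrpn covers the paternal copy. In the Igf2r domain the maternal allele expresses Igf2r, the antisense RNA Airn runs from the paternal allele, and Slc22a3 is imprinted in the placenta. SMCHD1, a chromatin-bound relative of the SMC proteins, is known from X inactivation and from these imprinted clusters in the mouse, DUX is a transcription factor of the 2-cell embryo, and TET enzymes oxidise methylated cytosine. The values here are total levels, with no information on which allele a read came from.

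The starts of the genes are shown because imprinting control acts through CpG methylation at such sites. Each sequence is the 250 bases before a start annotated by RefSeq on GRCm38.p6, written 5′ to 3′ on the strand of the gene, with each CpG in capitals. Snrpn had 4 annotated starts, and the third from the 5′ end and the most downstream one are shown.
Snrpn, upstream start, chr7:60047979-60048228, minus strand: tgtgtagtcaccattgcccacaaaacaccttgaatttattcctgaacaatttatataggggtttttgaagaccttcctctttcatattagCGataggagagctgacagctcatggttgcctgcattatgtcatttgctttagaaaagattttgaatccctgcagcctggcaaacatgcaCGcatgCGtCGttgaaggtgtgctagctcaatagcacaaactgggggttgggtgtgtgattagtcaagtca
Snrpn, most downstream start, chr7:60005200-60005449, minus strand: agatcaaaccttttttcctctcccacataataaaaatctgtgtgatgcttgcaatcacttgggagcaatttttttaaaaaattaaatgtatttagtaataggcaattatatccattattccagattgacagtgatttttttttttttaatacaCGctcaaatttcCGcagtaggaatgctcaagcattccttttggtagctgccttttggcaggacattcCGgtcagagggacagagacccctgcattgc
Ndn, chr7:62348027-62348276, plus strand: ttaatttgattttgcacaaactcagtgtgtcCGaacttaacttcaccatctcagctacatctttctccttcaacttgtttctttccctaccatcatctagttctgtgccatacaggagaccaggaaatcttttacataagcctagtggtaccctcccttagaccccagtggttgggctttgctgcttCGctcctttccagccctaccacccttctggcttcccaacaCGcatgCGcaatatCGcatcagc
Magel2, chr7:62376729-62376978, plus strand: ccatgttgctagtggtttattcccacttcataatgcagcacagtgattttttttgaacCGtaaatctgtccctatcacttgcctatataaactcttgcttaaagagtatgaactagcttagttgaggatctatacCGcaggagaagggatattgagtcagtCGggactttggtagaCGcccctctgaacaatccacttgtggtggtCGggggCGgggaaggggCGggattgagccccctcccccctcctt
Mkrn3, chr7:62420154-62420403, minus strand: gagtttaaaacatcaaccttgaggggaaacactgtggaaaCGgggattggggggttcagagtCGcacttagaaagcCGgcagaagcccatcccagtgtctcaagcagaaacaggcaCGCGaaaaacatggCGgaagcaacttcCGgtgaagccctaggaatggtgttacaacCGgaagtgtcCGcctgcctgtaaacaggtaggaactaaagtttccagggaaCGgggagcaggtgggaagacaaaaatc
Peg12, chr7:62464511-62464760, minus strand: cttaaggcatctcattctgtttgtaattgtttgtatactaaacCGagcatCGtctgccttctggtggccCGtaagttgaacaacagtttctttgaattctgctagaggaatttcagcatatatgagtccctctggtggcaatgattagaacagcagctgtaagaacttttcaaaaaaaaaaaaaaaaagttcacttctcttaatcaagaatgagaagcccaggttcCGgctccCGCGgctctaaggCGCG
Igf2r, chr17:12769707-12769956, minus strand: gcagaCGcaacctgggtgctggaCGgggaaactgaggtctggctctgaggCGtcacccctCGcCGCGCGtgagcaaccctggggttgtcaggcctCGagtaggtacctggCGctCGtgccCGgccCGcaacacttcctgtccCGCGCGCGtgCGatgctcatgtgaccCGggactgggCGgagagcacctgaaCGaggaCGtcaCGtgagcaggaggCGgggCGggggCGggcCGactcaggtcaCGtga
Airn, chr17:12741061-12741310, plus strand: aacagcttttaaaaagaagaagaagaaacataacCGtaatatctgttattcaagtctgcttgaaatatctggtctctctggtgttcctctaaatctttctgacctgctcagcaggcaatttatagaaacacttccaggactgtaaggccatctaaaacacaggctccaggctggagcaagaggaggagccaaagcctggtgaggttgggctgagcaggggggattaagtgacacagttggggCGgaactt
The starts of Ndn, Magel2, Mkrn3 and Peg12 lay together, with 116 kb between the start of Ndn and that of Peg12, and the start of Ndn was 2.34 Mb from the most downstream start of Snrpn. Airn started 28.4 kb inside Igf2r on the opposite strand. The Igf2r window held 27 CpGs, a number that 8.57% of 32841 windows reached, and that of Ube3a, not shown, held 24 CpGs, reached by 12% of windows. The 5 paternally expressed genes had far fewer. The most downstream Snrpn window held 3, that of Ndn 5, that of Magel2 7, that of Peg12 8 and that of Mkrn3 10, against a median of 6 over all windows. The word CGCATGCG, which reads the same on both strands and was looked for after the sequences had been seen, was in 3 of 4 Snrpn windows and in that of Ndn, and 1.55% of all windows hold it. The 3 Snrpn windows with the word are much alike in the sequence around it, so they do not count as separate occurrences beside that share. The word TGCCGC, the core of the motif of the imprinting factor ZFP57 and searched on both strands, was in 0 of the 12 windows of the 8 genes and Airn, against 8.68% of all windows. That count was not tested against the share, and 12 windows are few. Each window ends at its start, so sequence downstream of a start was neither searched for these words nor counted for CpGs. The counts therefore do not describe imprinting control regions that reach past the windows.

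The libraries held between 11.4 and 74.4 times 1e6 reads in genes, which gave the 8 genes between 1 read (Slc22a3 in Smchd1 KO) and 49685 reads (Ube3a in WT) per genotype. The level of Smchd1 was 79.0 ± 8.48 CPM in Double KO and 60.4 ± 15.3 CPM in Smchd1 KO cells, against 193 ± 19.6 CPM in Dux KO and 206 ± 2.28 CPM in WT cells. It was 23.4 ± 14.7 CPM in quad KO cells and 155 ± 5.46 CPM in Tet TKO cells (SD, n = 3 each, as throughout). CPM are counts per 1e6 counts of a library. All 11 ES cell markers in the tables averaged over 1 CPM in every genotype, with a summed level of 3037 to 5433 CPM. The replicates stood apart to very different degrees. The noise ratio, a measure of how far a pair of libraries differs across genes that is near 1 when only counting error separates them, was 17.5 to 32.3 in Double KO and 16.4 to 31.7 in Dux KO, against 1.33 to 2.19 in WT, where technical runs of 1 replicate gave 1.59 to 1.89. It was 3.82 to 11.1 in quad KO and 1.44 to 1.70 in Tet TKO. The WT and Tet TKO replicates were therefore about as close as repeat runs of a single sample, and the p-values below rest on a spread that may be technical in those genotypes. Because these are bulk samples, less RNA per cell and fewer cells expressing a gene cannot be told apart.

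Slc22a3 did not pass the filter of 0.5 CPM in 3 samples, so 7 of the 8 genes were tested in each table. With limma's moderated test on log2(CPM + 0.5) and a Benjamini-Hochberg adjusted p under 0.05 over all genes, 0 of 7 passed in Smchd1 KO vs WT (0.889% of all genes did) and 0 of 7 in Double KO vs Dux KO (0.0123%). At an unadjusted p under 0.05 these numbers were 2, Ndn and Mkrn3, beside 16.4% of all genes, and 1, Ndn, beside 9.77%. DESeq2 called 2 in the first (6.69% of all genes) and 1 in the second (1.36%), and edgeR called 0 in both (1.42% and 0.0123% of all genes). When the effect of Smchd1 loss was averaged over both Dux backgrounds, 1 of 7 passed, Ndn, against 0.37% of all genes. In quad KO vs Tet TKO 4 of 7 passed against 37.7% of all genes. Of the 4, 2 were higher (Ndn and Magel2, beside 17.1% of all genes) and 2 lower (Peg12 and Snrpn, beside 20.6%).

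**Figure D1:**
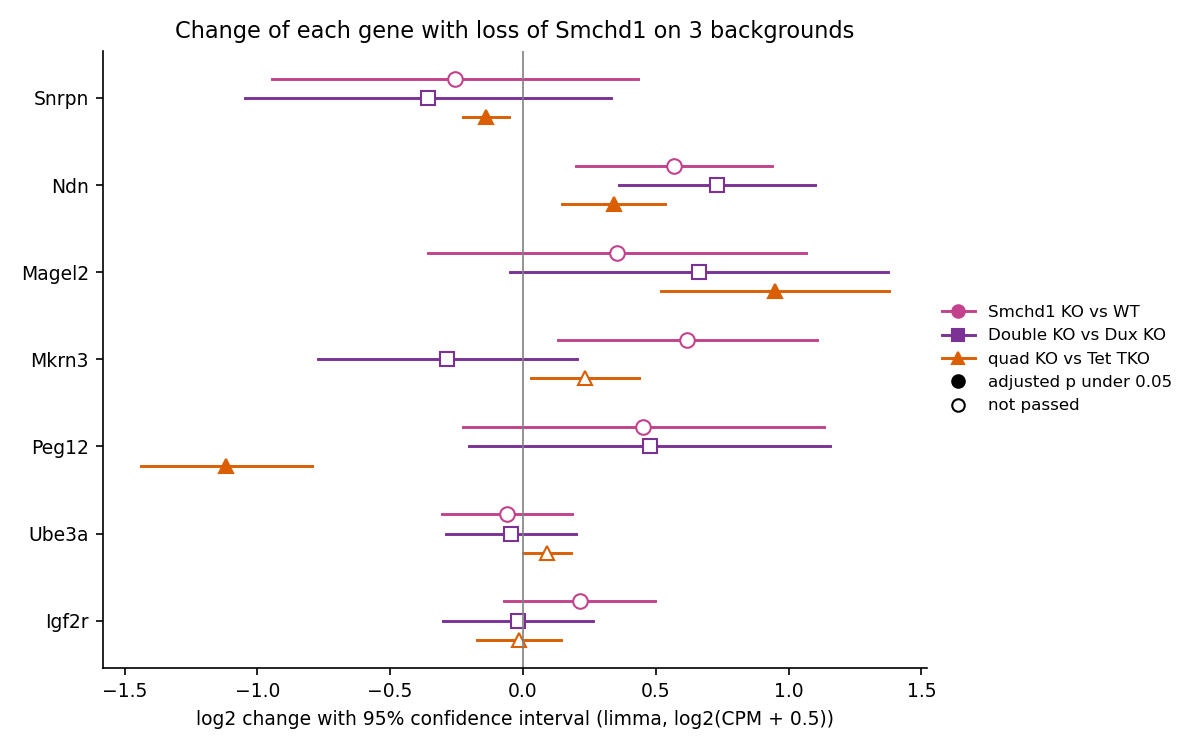
Log2 change of each tested gene with loss of Smchd1 (horizontal axis, limma on log2(CPM + 0.5)) in quad KO vs Tet TKO, Double KO vs Dux KO and Smchd1 KO vs WT. Symbols are estimates, lines are 95% confidence intervals and filled symbols passed an adjusted p under 0.05; Ndn lies right of 0 in all 3 comparisons, while Peg12 lies at -1.12 in quad KO vs Tet TKO and at 0.48 and 0.45 in the other 2.

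The effect of Smchd1 loss is drawn above for the 3 backgrounds on which the study deleted the gene. The confidence intervals in the first table were wide, since 1 spread was estimated for all 4 genotypes and the Double KO and Dux KO replicates varied most. With only Smchd1 KO and WT in the fit, 5 of 7 genes passed (Ndn, Mkrn3, Peg12 and Igf2r higher, Snrpn lower), but so did 44.1% of all genes tested.

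Ndn, which encodes necdin, a MAGE-family protein of neurons and other postmitotic cells, was higher without Smchd1 on every background. It had 13.2, 12.3 and 16.7 CPM in the Double KO replicates and 12.8, 12.8 and 11.6 CPM in the Smchd1 KO replicates. It had 7.01, 8.38 and 9.37 CPM in the Dux KO replicates and 8.02, 7.71 and 8.87 CPM in the WT replicates. All 6 samples without Smchd1 thus lay above all 6 samples with it, as they did for 0.309% of all genes. The same held library by library between the 6 Smchd1 KO libraries, at 11.4 to 13.7 CPM, and the 6 WT libraries, at 7.28 to 9.17 CPM. These libraries are technical runs of the same samples and add no replicates. By sample, 57.7% of all genes did not overlap between Smchd1 KO and WT. Averaged over both Dux backgrounds Ndn rose by 0.65 on the log2 scale (1.57-fold, SE 0.12, adjusted p = 0.0431). The single contrasts gave a change of 0.73 in Double KO vs Dux KO (SE 0.17, adjusted p = 0.192) and of 0.57 in Smchd1 KO vs WT (SE 0.17, adjusted p = 0.151), neither past the threshold. Their difference was 0.16 (95% interval -0.36 to 0.68). The averaged call was not stable: it was lost in 10 of 12 fits that left out 1 sample and in 6 of 12 other alternatives, edgeR among them (adjusted p = 0.0737, with 0.0247% of all genes called), although the change stayed between 0.57 and 0.70 and the adjusted p ran from 2.41e-06 to 0.204.

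In the Tet knockout cells Ndn moved the same way. It had 18.04, 15.1 and 16.7 CPM in quad KO, against 13.3, 13 and 12.6 CPM in Tet TKO, with every quad KO replicate above every Tet TKO replicate. The gene rose by 0.34 on the log2 scale (1.27-fold, SE 0.08, adjusted p = 0.0152). The call was lost without quad KO replicate 1 (adjusted p = 0.0510) and without any 1 of the Tet TKO replicates (adjusted p = 0.0504 to 0.0677). Because Ndn is also expressed in fibroblasts, their markers are given beside it. The summed level of 10 fibroblast markers was 32.9 to 61.4 CPM in Double KO, 30.5 to 59.5 CPM in Smchd1 KO, 12.5 to 36.0 CPM in Dux KO and 20.7 to 23.0 CPM in WT. It was 32.1 to 36.0 CPM in quad KO and 20.1 to 20.5 CPM in Tet TKO. Lum was at 0 in the 3 knockout genotypes of the first table. With Smchd1 loss on average 1 of 7 tested markers was called higher, beside 0.37% of all genes. Smchd1 KO vs WT and Double KO vs Dux KO each called 0 of 7 (0.889% and 0.0123% of all genes). In quad KO vs Tet TKO 4 of 7 were called higher (17.1% of all genes) and 0 lower (20.6%). Within Double KO the summed level was 61.4, 53.5 and 32.9 CPM by replicate, lowest in replicate 3, where Ndn was highest. Within Dux KO it was 12.5, 18.3 and 36.0 CPM, rising in the same order as Ndn. Within Smchd1 KO it was 41.2, 59.5 and 30.5 CPM, lowest in replicate 3, where Ndn was lowest too. Within WT it was 20.7, 23.0 and 22.3 CPM, highest in replicate 2, where Ndn was lowest. The ranges of Double KO and Dux KO overlapped for these markers, unlike those of Ndn. The part of these markers in the change of Ndn was not tested.

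Magel2, a MAGE-family neighbour of Ndn that acts with a ubiquitin ligase in endosomal sorting, was near the detection limit. It had 2.66, 0.734 and 2.20 CPM in Double KO, 0.981, 1.20 and 0.791 CPM in Smchd1 KO, 1.19, 1.03 and 0.524 CPM in Dux KO and 0.854, 0.461 and 0.697 CPM in WT. The totals behind these values were 92 reads in Double KO, 180 in Smchd1 KO, 39 in Dux KO and 130 in WT. The ranges of the samples without Smchd1 overlapped those of their controls on both Dux backgrounds, and the changes of 0.66 in Double KO vs Dux KO (95% interval -0.05 to 1.38) and 0.35 in Smchd1 KO vs WT (-0.36 to 1.07) did not pass. In quad KO cells Magel2 had 2.74, 2.90 and 4.49 CPM, against 1.26, 1.52 and 1.65 CPM in Tet TKO cells. All quad KO replicates lay above all Tet TKO replicates, and Magel2 rose 1.93-fold (log2 change 0.95, SE 0.19, adjusted p = 0.00588). This call held in all 6 fits without 1 sample and in the 10 other alternatives.

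Mkrn3, which encodes a RING finger ubiquitin ligase known for restraining puberty, stood highest in Smchd1 KO cells. It had 11.02, 13 and 10.8 CPM in Smchd1 KO, against 7.10, 7.46 and 7.52 CPM in WT, and no Smchd1 KO replicate or library fell into the WT range. By replicate, 57.7% of all genes did not overlap between these genotypes. The fitted change of Mkrn3 was 0.62 (1.54-fold, SE 0.22, adjusted p = 0.215), which did not pass. On the Dux knockout background the order was the other way, with 4.76, 9.30 and 8.62 CPM in Double KO, against 9.02, 7.97 and 10.03 CPM in Dux KO. Those ranges overlapped, and the change of -0.28 (SE 0.22, adjusted p = 0.742) did not pass. The difference between the effects on the Dux knockout and the WT background was -0.90 (SE 0.32), with an unadjusted p of 0.0142 and an adjusted p of 0.183 in limma. None of the 7 genes passed for that difference, beside 0.512% of all genes, and DESeq2 and edgeR called 0 as well (5.85% and 0.0432% of all genes). At an unadjusted p under 0.05 Mkrn3 was the only one, against 17.4% of all genes. Double KO lay below Smchd1 KO in every replicate of Mkrn3 (log2 change -0.63, SE 0.22, adjusted p = 0.111). In quad KO cells the gene had 6.65, 6.22 and 6.64 CPM, against 5.46, 5.43 and 5.47 CPM in Tet TKO cells, with no overlap and a change of 0.23 (SE 0.09, adjusted p = 0.0703) that did not pass. Markers of 2-cell-like cells were also highest in Smchd1 KO within the first table. The summed level of the 8 markers was 102, 104 and 49.7 CPM in Smchd1 KO, against 12.7, 10.6 and 12.6 CPM in WT, and it did not exceed 0.535 CPM in Double KO or 0.224 CPM in Dux KO, where 2 and 5 of the markers were at 0. Their part in the level of Mkrn3 was not tested.

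**Figure D2:**
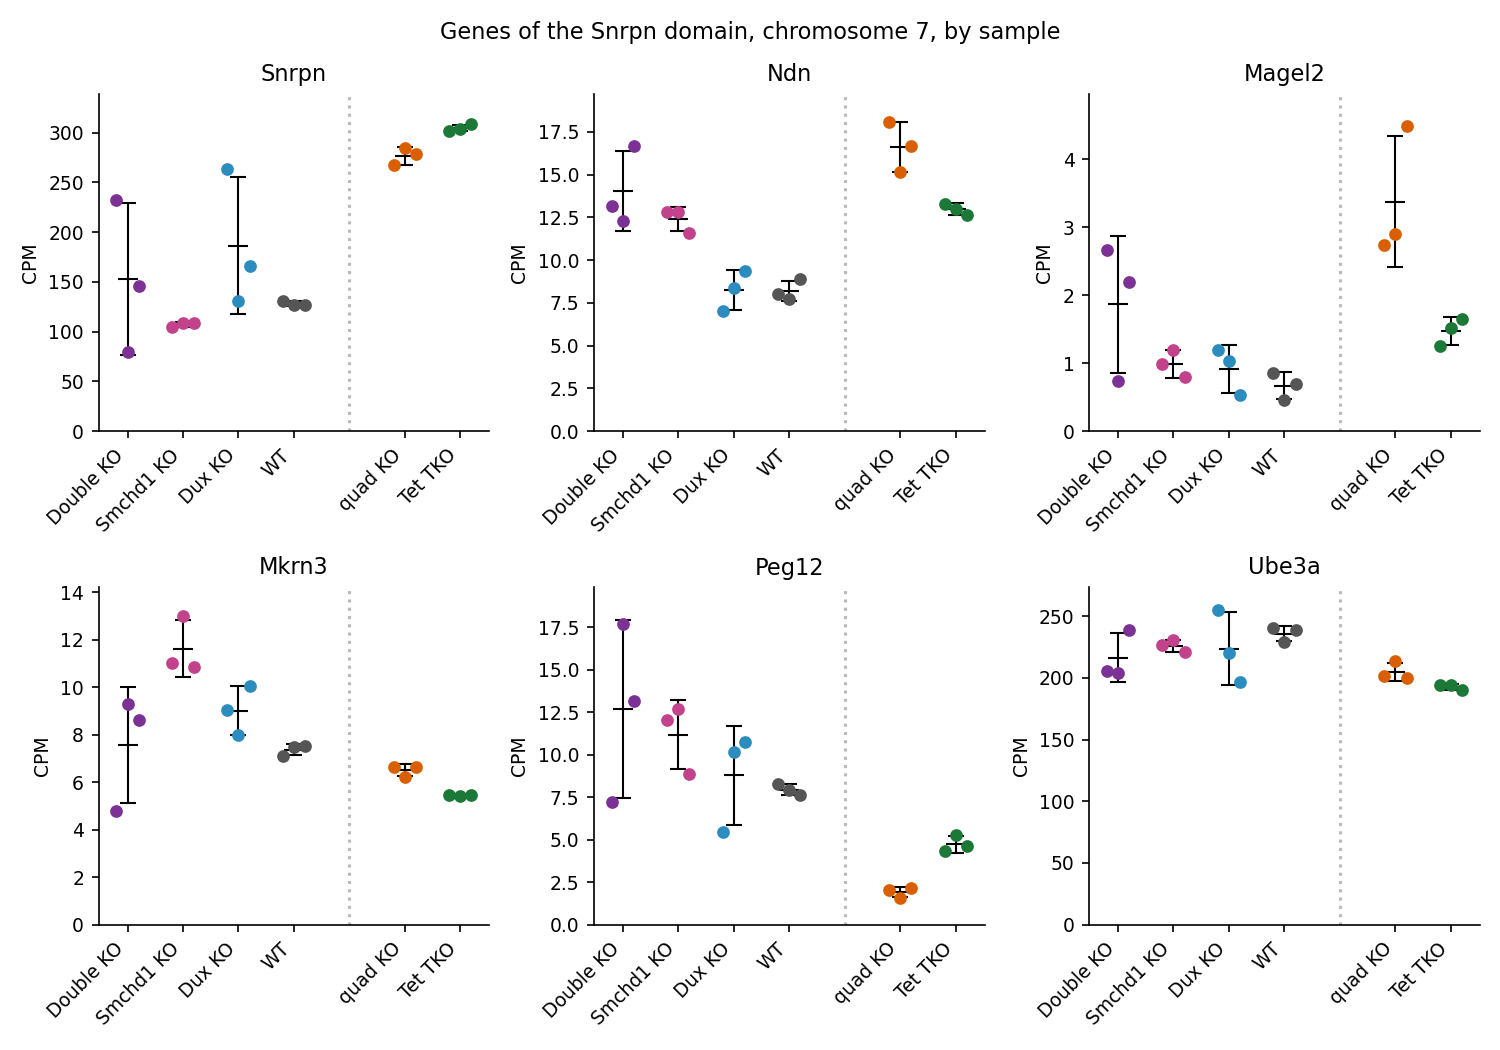
Level of 6 genes of the Snrpn domain (vertical axis, CPM) in each replicate, by genotype; points are replicates, bars are mean ± SD (n = 3), and the dotted line separates the tables, which were normalized separately. Ndn was above its control in every sample without Smchd1, and Snrpn, Magel2 and Peg12 had the widest spread on the log2 scale in Double KO and Dux KO.

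Peg12, a paternally expressed gene of the FRAT family, whose members bind the kinase GSK3, was lower in quad KO than in Tet TKO. It had 2.04, 1.56 and 2.15 CPM in quad KO, against 4.31, 5.26 and 4.60 CPM in Tet TKO. The groups did not overlap, and Peg12 fell by 1.12 on the log2 scale (SE 0.14, adjusted p = 0.000826), which held in every fit without 1 sample and in the 10 other alternatives. In the first table it had 12.02, 12.7 and 8.85 CPM in Smchd1 KO, against 8.27, 7.92 and 7.63 CPM in WT. Every Smchd1 KO replicate was above every WT replicate, but single libraries overlapped (8.16 to 13.4 CPM in Smchd1 KO against 7.34 to 8.34 CPM in WT), and the change of 0.45 (SE 0.31, adjusted p = 0.495) did not pass. On the Dux knockout background Peg12 had 7.24, 17.7 and 13.2 CPM in Double KO, against 5.44, 10.2 and 10.8 CPM in Dux KO, with overlapping ranges and a change of 0.48 (SE 0.31, adjusted p = 0.668). Magel2 and Peg12, which lie in the same cluster as Ndn, therefore changed in opposite directions in quad KO cells.

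Snrpn, which encodes SmN, a protein of spliceosomal small ribonucleoproteins, had a lower mean without Smchd1 in each of the 3 comparisons. It had 105, 109 and 108 CPM in Smchd1 KO, against 131, 127 and 127 CPM in WT, so that all Smchd1 KO replicates were below all WT replicates. The change was -0.26 (95% interval -0.95 to 0.43, adjusted p = 0.720) and did not pass. In the Tet knockout cells it had 267, 285 and 278 CPM in quad KO, against 302, 304 and 308 CPM in Tet TKO, again without overlap. There Snrpn fell by 0.14 on the log2 scale (SE 0.04, adjusted p = 0.0203), a call lost without quad KO replicate 1 (adjusted p = 0.0618) and without any 1 Tet TKO replicate (adjusted p = 0.0651 to 0.0869).

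The Dux knockouts were different in that their replicates disagreed. Snrpn had 232, 80.0 and 145 CPM in Double KO, against 263, 130 and 166 CPM in Dux KO. The change of -0.36 (SE 0.32, adjusted p = 0.776) did not pass, and it turned to 0.04 without Double KO replicate 2. The SD of Snrpn on the log2 scale was 0.77 in Double KO and 0.51 in Dux KO, while it was 0.03 in both Smchd1 KO and WT. Of the genes at a like level, 2.37% had a larger SD in Double KO and 6.69% in Dux KO. Within each of these genotypes Peg12 was lowest in the replicate in which Snrpn was highest, and in Double KO Mkrn3 was too. Magel2, near the detection limit, was instead highest in that replicate, at 2.66 CPM in Double KO and 1.19 CPM in Dux KO. Ndn did not follow this spread, with an SD of 0.22 in Double KO and 0.20 in Dux KO, below the medians over genes of 0.31 and 0.30.

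**Figure D3:**
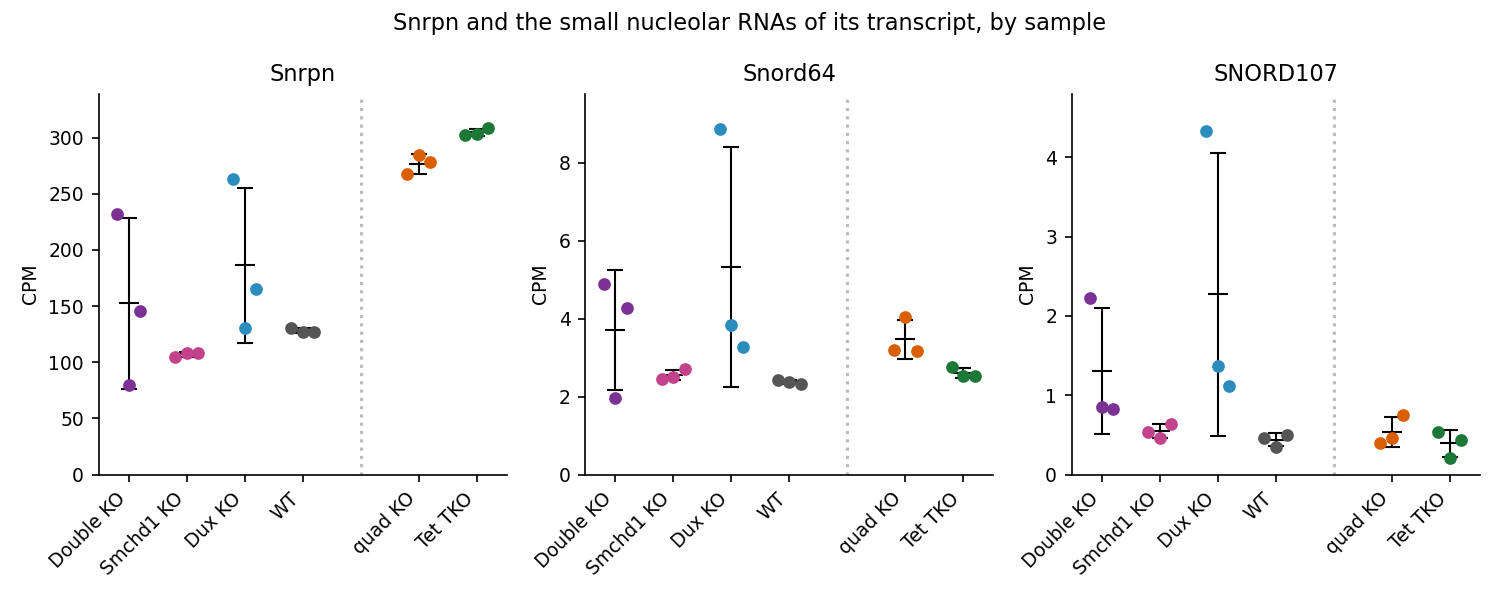
Level of Snrpn and of 2 small nucleolar RNA entries (vertical axes, CPM) in each replicate, by genotype; points are replicates, bars are mean ± SD (n = 3), and the dotted line separates the tables. The first Dux KO replicate was the highest of its genotype for all 3 entries.

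The small nucleolar RNA entries Snord64 and SNORD107, whose sequences are known to be cut from introns of the long Snrpn transcript, were looked at after the spread of Snrpn had been seen. Snord64 had 4.89, 1.96 and 4.28 CPM in Double KO, against 8.87, 3.85 and 3.28 CPM in Dux KO, and SNORD107 had 2.23, 0.856 and 0.832 CPM in Double KO, against 4.32, 1.37 and 1.11 CPM in Dux KO. Both were highest in replicate 1 of each genotype, as Snrpn was. In WT they ran from 2.33 to 2.42 CPM and from 0.348 to 0.504 CPM, below every Dux KO replicate. Neither passed in Dux KO vs WT, with changes of 0.90 (SE 0.35, adjusted p = 0.134) and 1.38 (SE 0.38, adjusted p = 0.0612). The summed level of 9 neuron markers was 205, 211 and 280 CPM in the Double KO replicates and 285, 296 and 212 CPM in the Dux KO replicates, and in neither genotype was it highest in replicate 1. The trophoblast and extraembryonic endoderm markers, whose values are given with Airn, were highest in replicate 1 of Double KO, where Snrpn was highest, and in replicate 3 of Dux KO, where it was not. Their part in the spread of Snrpn was not tested. About 3.94% of the 50-base words of Snrpn transcripts were shared with other annotated genes, and the entry, whose ID is named Gm38393 in GENCODE M21, covers overlapping transcripts of the Snurf and Snrpn locus.

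Ube3a, the ubiquitin ligase lost in Angelman syndrome, passed in none of the comparisons in the main analysis. It had 206, 204 and 239 CPM in Double KO, against 255, 220 and 197 CPM in Dux KO, and 227, 231 and 221 CPM in Smchd1 KO, against 240, 229 and 239 CPM in WT. Both pairs overlapped. The intervals of the change reached from -0.29 to 0.20 in Double KO vs Dux KO and from -0.31 to 0.19 in Smchd1 KO vs WT. In quad KO cells it had 202, 214 and 200 CPM, against 194, 194 and 190 CPM in Tet TKO cells, which did not overlap, and the change of 0.09 (SE 0.04, adjusted p = 0.110) did not pass. Of the 50-base words of Ube3a transcripts 24.8% also occur in overlapping or antisense genes, Snhg14 among them. Whether reads were counted by strand is not given in the sources used here, so sense and antisense reads cannot be told apart.

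Igf2r, the receptor that takes up IGF2 and mannose 6-phosphate proteins, passed in none of the comparisons in the main analysis. It had 217, 197 and 187 CPM in Double KO, 179, 182 and 184 CPM in Smchd1 KO and 210, 243 and 164 CPM in Dux KO, against 155, 157 and 158 CPM in WT. No knockout replicate fell into the WT range, and 3.73% of all genes likewise lay above WT in every replicate of the 3 knockouts. The changes were 0.36 in Double KO vs WT (SE 0.13, adjusted p = 0.139), 0.21 in Smchd1 KO vs WT (SE 0.13, adjusted p = 0.433) and 0.37 in Dux KO vs WT (SE 0.13, adjusted p = 0.108), and none passed. These 3 comparisons share the WT samples. In Dux KO vs WT Igf2r was called in 1 of 6 fits without 1 sample and in 3 of 14 other alternatives. DESeq2 was among them (adjusted p = 0.0276, with 16.1% of all genes called). In Double KO vs WT it was called in 0 of 6 and 2 of 14, DESeq2 among them (adjusted p = 0.0439, with 12.4% of all genes called). In Smchd1 KO vs WT it was called in 0 of 6 and 2 of 13. Between Double KO and Dux KO the values overlapped and the change was -0.02 (95% interval -0.30 to 0.26). In the Tet knockout cells Igf2r had 104, 101 and 88.2 CPM in quad KO, against 93.7, 98.9 and 103 CPM in Tet TKO, with overlapping ranges and a change of -0.02 (95% interval -0.17 to 0.14, adjusted p = 0.880).

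**Figure D4:**
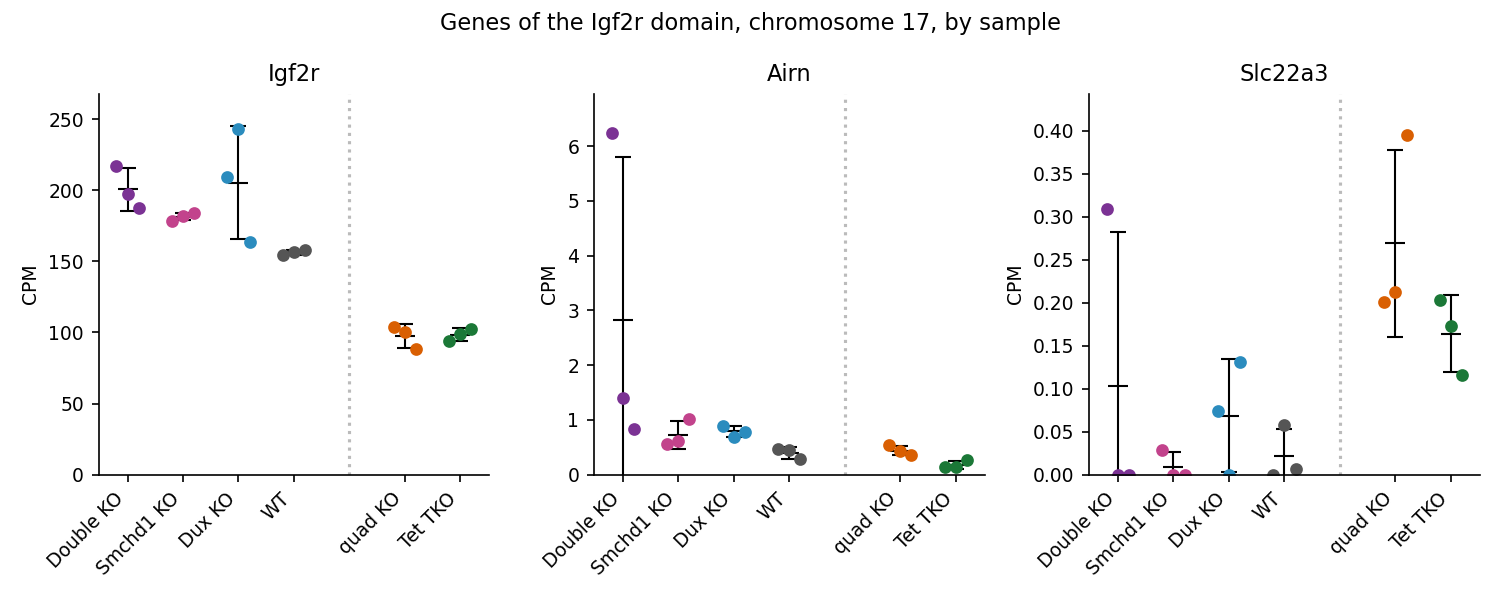
Level of Igf2r, Airn and Slc22a3 (vertical axes, CPM) in each replicate, by genotype; points are replicates, bars are mean ± SD (n = 3), cut at 0, and the dotted line separates the tables. Every knockout replicate of the first table lay above WT for Igf2r, and Airn and Slc22a3 were highest in that table in Double KO replicate 1.

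Airn, the antisense RNA that silences the paternal Igf2r copy in mouse tissues, had 6.25, 1.41 and 0.832 CPM in Double KO, against 0.895, 0.687 and 0.787 CPM in Dux KO. It had 0.552, 0.610 and 1.02 CPM in Smchd1 KO, against 0.463, 0.446 and 0.278 CPM in WT. Double KO replicates 1 and 2 lay above every sample of the other genotypes of that table, replicate 1 far more so. Replicate 3 did not, and the ranges of Double KO and Dux KO overlapped. The changes of 1.00 in Double KO vs Dux KO (SE 0.45, adjusted p = 0.494) and 0.44 in Smchd1 KO vs WT (SE 0.45, adjusted p = 0.660) did not pass. Nor did that of 1.53 in Double KO vs WT (SE 0.45, adjusted p = 0.0868), where the groups did not overlap, beside 36.2% of all genes. In the second table Airn did not pass the filter, at 0.535, 0.424 and 0.359 CPM in quad KO, against 0.136, 0.138 and 0.260 CPM in Tet TKO. Airn and Igf2r reads cannot be told apart where the genes overlap, for the reason given for Ube3a. Trophoblast and extraembryonic endoderm markers were also highest in Double KO replicate 1 within that genotype. The summed level of 9 trophoblast markers was 776, 159 and 168 CPM in the Double KO replicates, against 39.1, 32.6 and 227 CPM in the Dux KO replicates. That of 8 endoderm markers, of which Dab2 was at 0 in both genotypes and Afp in Dux KO, was 1107, 189 and 57.5 CPM in Double KO, against 413, 266 and 861 CPM in Dux KO. Their part in the level of Airn was not tested.

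Slc22a3, an organic cation transporter imprinted in the placenta, was barely detected. It had 5 reads in Double KO, all in replicate 1, against 3 in Dux KO, and 1 in Smchd1 KO, against 3 in WT. Per 1e6 reads these are 0.105 in Double KO, against 0.0708 in Dux KO, and 0.00532 in Smchd1 KO, against 0.0139 in WT. In quad KO it had 23 reads, or 0.271 per 1e6 reads (95% exact Poisson interval 0.172 to 0.407), against 15 in Tet TKO, or 0.163 per 1e6 reads (0.0912 to 0.269), and these intervals, which cover counting error only, overlap. In the first table Double KO had an interval of 0.034 to 0.244, against 0.0146 to 0.207 for Dux KO, and Smchd1 KO had one of 0.000135 to 0.0296, against 0.00286 to 0.0405 for WT. Those of Double KO and Smchd1 KO did not meet, with all Double KO reads in 1 replicate, and the other pairs overlapped. A difference with loss of Smchd1 was not detectable at this depth on any background. Of the Slc22a3 words of 50 bases, 8.27% are shared with Plg. Slc22a2, the other imprinted transporter of the domain, had 1 read in Double KO and 0 in each of the other 5 genotypes, too few to compare the genotypes.

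In order of mean level within the first table, Ndn ran from Double KO through Smchd1 KO and Dux KO to WT, and only the step between Smchd1 KO and Dux KO was without overlap. Mkrn3 ran from Smchd1 KO through Dux KO and Double KO to WT, with a gap only between Smchd1 KO and Dux KO. Snrpn ran from Dux KO through Double KO and WT to Smchd1 KO, with a gap only between WT and Smchd1 KO. Igf2r ran from Dux KO through Double KO and Smchd1 KO to WT, and the last 2 steps had gaps. For Magel2, Peg12, Ube3a and Slc22a3 all neighbours in the order overlapped. In Smchd1 KO vs WT 5 of 7 genes did not overlap, beside 57.7% of all genes. In Double KO vs Dux KO it was 1 of 7, Ndn, beside 6.15%, and in quad KO vs Tet TKO 6 of 7 beside 53.3%. The other comparisons gave 2 of 7 each: Mkrn3 and Igf2r in Double KO vs Smchd1 KO, beside 29.7%, Mkrn3 and Igf2r in Dux KO vs WT, beside 39.6%, and Ndn and Igf2r in Double KO vs WT, beside 36.2%.

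Loss of Dux left none of the 7 genes past the threshold. In Dux KO vs WT limma called 0 of 7, against 3.98% of all genes, and 1 at an unadjusted p under 0.05, Igf2r, against 26% of all genes. Double KO vs Smchd1 KO likewise gave 0 of 7, against 4.38%, and 1 unadjusted, Mkrn3, against 25.1%. DESeq2 called 1 in each (16.1% and 15.2% of all genes) and edgeR 0 (5.76% and 5.54%). In Double KO vs WT, where both genes are lost, limma called 0 of 7 against 1.57% of all genes, and 3 at an unadjusted p under 0.05 (Ndn, Magel2 and Igf2r) against 23.1%. DESeq2 called 3 (12.4% of all genes) and edgeR 1 (3.43%). The change of Ndn there was 0.73 (adjusted p = 0.0538).

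The genes around the 8 were followed from lists of the domains and of other imprinted genes. In Smchd1 KO vs WT and in Double KO vs Dux KO limma called 0 of 10 other genes of the Snrpn domain, 0 of 14 entries of the Igf2r domain and 0 of 45 other imprinted genes. At an unadjusted p under 0.05 these numbers were 2, 1 and 8 in Smchd1 KO vs WT and 1, 3 and 5 in Double KO vs Dux KO, beside 16.4% and 9.77% of all genes in these comparisons. The median changes of the 7 tested genes were 0.35 and -0.02 in these comparisons, beside 0.00 and -0.02 over all genes. In quad KO vs Tet TKO 3 of 11 genes of the Snrpn domain were higher and 0 lower. Among them were the phospholipid flippase gene Atp10a, at 19.9 ± 0.964 CPM in quad KO against 12.4 ± 1.22 CPM in Tet TKO (1.58-fold, adjusted p = 0.00118), and Gabra5 (1.47-fold, adjusted p = 0.0402), which encodes a subunit of a neurotransmitter receptor. Near Igf2r, Sod2, the mitochondrial superoxide dismutase, fell to 106 ± 5.56 CPM in quad KO against 134 ± 1.83 CPM in Tet TKO (adjusted p = 0.00151). Dact2 also fell, by 0.78 on the log2 scale (adjusted p = 0.00138), and the other 9 of 11 did not pass. Of 45 other imprinted genes 12 were higher and 20 lower there, with a median change of -0.25 beside -0.01 over all genes. Over all genes tested in quad KO vs Tet TKO, 17.1% were called higher and 20.6% lower, against which these list counts and those that follow are to be read. In the same comparison 7 of 11 ES cell markers were lower and 1 higher, at a summed 3867 to 4070 CPM in quad KO against 4732 to 4832 CPM in Tet TKO, and 5 of 8 trophoblast markers were higher and 1 lower (291 to 547 CPM in quad KO against 236 to 245 CPM in Tet TKO). No marker of either list was at 0, and the part of such a shift in the changes of Peg12, Magel2, Ndn and Snrpn was not tested.

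As a description of pattern, the genes most like each of the 7 over the 12 samples of the first table were named by Pearson's r on log2(CPM + 0.5). They were BC046331 for Snrpn (r = 0.91), Pcsk1 for Ndn (r = 0.92), Dock11 for Magel2 (r = 0.91), Mastl for Mkrn3 (r = 0.94), Fam167a for Peg12 (r = 0.93), Msrb2 for Ube3a (r = 0.94) and Diap3 for Igf2r (r = 0.95). The genes followed in this account were left out of the ranking, so each named gene is the highest of the rest of 16200 genes. The samples compared share genotype and library depth. None of the named genes is on chromosome 7 or 17. Genes ranked close behind them were on these chromosomes for Ndn (r = 0.91, chromosome 7) and Mkrn3 (r = 0.93, chromosome 17). The median gene of chromosomes 7 and 17 stayed within -0.07 and 0.04 on the log2 scale of its level in the comparison genotype, in every sample.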

How the data were processed

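The authors deposited a normalized signal per gene, named CPM, in 2 tables of 37310 entries, and per the submitters' processing notes used Trim Galore, STAR 2.5.1, the mm9 build and limma 3.38.2. The read counter and its use of strand are not given in the sources used here. Whole reads were recovered from every library: below 200 reads, 100% of values came within 0.1 of a whole number of reads. Of the second table, 3 columns of per-sample values, named for WT, matched no sample by name and were not used. Smchd1 KO columns carry no replicate number, so the 6 were joined into 3 pairs of runs by their noise ratio (1.36 to 1.69 within pairs, 3.34 to 13.6 between). The mean of its runs stood for each sample.

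Genes reaching 0.5 CPM in 3 or more samples (16200 and 14920) were fitted as log2(CPM + 0.5) with limma 3.58.1 (R 4.3.3), a mean for each genotype, all genotypes of a table fitted jointly, an intensity trend and two-sided tests, with Benjamini-Hochberg adjustment over all genes. All log2 changes are on this scale, which understates those of low genes. Alternatives were edgeR 4.0.16 and DESeq2 1.42.0 on recovered reads, other pseudocounts, filters, scalings and sample sets, and each sample left out. Both fits were tested on simulated data. IDs were matched to GENCODE M21 (32620 of 37310) for chromosomes only, since its build is not mm9. All 8 genes matched the RefSeq promoter table. The genes named are the 8, and from the lists of neighbours those that passed plus Airn, Atp10a and Slc22a2; 1 gene that passed is not reported here. Markers at 0, the gene outside the 8 most like each tested one and, chosen after values were seen, Snord64 and SNORD107 are also named. The 8 genes and all lists were chosen with earlier results of these data known.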

Additional observations from a re-analysis of the deposited data

Results flagged for a closer look

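Peg12 is listed because its replicates did not overlap on 2 backgrounds, in opposite directions. In Smchd1 KO vs WT all Smchd1 KO replicates were above all WT replicates, with a log2 change of 0.45, which did not pass, while single libraries overlapped, and 57.7% of all genes did not overlap. In quad KO vs Tet TKO all quad KO replicates were below all Tet TKO replicates, with a log2 change of -1.12, which passed, and 53.3% of all genes did not overlap. In Double KO vs Dux KO the ranges of Peg12 overlapped. The difference between these changes was not tested, since they come from tables normalized separately.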

How the results depend on the processing

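The number of the 7 genes called moved with the fit as follows. In Smchd1 KO vs WT (0 in the main analysis) it was 5 with array quality weights, 5 with only those genotypes in the fit, 2 with DESeq2 and 2 with the Smchd1 KO columns not joined, while 57.4%, 44.1%, 6.69% and 9.18% of all genes passed in these fits. In Double KO vs Dux KO it was 1 with DESeq2 (1.36% of all genes). For the effect averaged over both Dux backgrounds the 1 call became 0 with edgeR, a filter of 2 CPM, pseudocounts of 0.1 and 2, quantile normalization and technical run 2 alone (0.0247%, 0.0912%, 0.13%, 0.247%, 0.259% and 0.239% of all genes). The count ranged from 0 to 1 without single replicates, where 0.0309% to 0.807% of all genes passed. In Dux KO vs WT and in Double KO vs Smchd1 KO it was 1 with array weights (39.7% and 16.5% of all genes), DESeq2 (16.1% and 15.2%) and unjoined columns (11.5% and 22.1%). Without single replicates it was 0 to 1 in both, beside 0.0124% to 17.4% of all genes in Dux KO vs WT and 0.311% to 15% in Double KO vs Smchd1 KO. In Double KO vs WT it was 3 with DESeq2 (12.4% of all genes), 2 with array weights (15.1%), 1 with edgeR (3.43%), centred chromosome medians (2.07%), the 2 CPM filter (2.01%), the pseudocount of 0.1 (1.92%), unjoined columns (8.62%) and technical run 1 alone (3.14%). Without single replicates it was 0 to 1, beside 0.0124% to 18.7% of all genes. In quad KO vs Tet TKO it was 7 with array weights, where 72.3% of all genes passed. Without single replicates it was 2 to 5, beside 22.7% to 51.3% of all genes. The cause of these moves was not tested.

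Some small changes changed sign. Igf2r in Double KO vs Dux KO (-0.02) became 0.010 with centred chromosome medians and ranged from -0.17 to 0.11 without single replicates. In quad KO vs Tet TKO Igf2r (-0.02) became 0.071 with array weights and 0.013 with quantile normalization, and ranged from -0.061 to 0.054 without single replicates. In Double KO vs Dux KO Snrpn ranged from -0.72 to 0.042 and Ube3a from -0.13 to 0.052 without single replicates. Quantile normalization gave Ube3a 0.067 in Smchd1 KO vs WT and 0.0066 averaged.

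Over all genes the count called ranged with the alternatives from 37 to 9292 in Smchd1 KO vs WT (144 in the main analysis), from 0 to 220 in Double KO vs Dux KO (2), from 4 to 254 for the averaged effect (60), from 0 to 2242 for the difference of effects (83), from 2 to 6431 in Dux KO vs WT (644), from 2 to 3015 in Double KO vs WT (255), from 50 to 3636 in Double KO vs Smchd1 KO (709) and from 3329 to 10792 in quad KO vs Tet TKO (5619).

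Replicate numbers were not taken to pair the samples, since in no pair of genotypes were all 3 correlations of same-numbered deviations over 0.1. They were 0.073, 0.469 and -0.135 between Double KO and Dux KO, 0.169, 0.167 and 0.0311 between Dux KO and WT, 0.056, 0.233 and 0.0723 between Double KO and WT (where every Double KO sample correlated best with its own number) and 0.00775, 0.0166 and -0.0299 between quad KO and Tet TKO. With the replicate block 4 of the 7 genes were called in quad KO vs Tet TKO, where 4913 genes (32.9% of all genes) passed. In Double KO vs Dux KO, Dux KO vs WT and Double KO vs WT the block gave 0 of 7. There 2, 30 and 24 genes passed (0.0126%, 0.189% and 0.151% of all genes). These comparisons were fitted without Smchd1 KO, whose columns have no number.

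Depth limits Slc22a3, Slc22a2 and Airn most, and Magel2 in the first table, where Dux KO had 39 reads in all.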
